A study of Homo sapiens with 8 samples.

Results

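HCT-8 cells grown in medium that had been conditioned by 5-FU-resistant HCT-8/FU cells (CM of HCT-8/FU, or HCT-8/FU CM) were compared with HCT-8 cells grown in medium conditioned by HCT-8 cells themselves (CM of HCT-8, or HCT-8 CM). The libraries were chosen by their titles, 2 replicates of each group, and make up 4 of the 8 RNA-seq libraries of the study. HCT-8 cells come from a human colon carcinoma and respond to 5-FU, an antimetabolite used against colorectal cancer, and HCT-8/FU is their resistant derivative. CM was collected after 48 h of culture. The labels give the medium as Ham's F12 with serum and antibiotics, whereas the study's methods name RPMI for HCT-8, and which of them applies to these libraries is not settled here. The groups share the cell line and the handling of the medium and differ in the cells that conditioned it. The study sequenced these libraries in a search for kinases of coilin, a protein of the Cajal bodies in the nucleus. How long the cells were kept in CM, and whether replicates were separate cultures, is stated neither in the labels nor in the methods, so p-values measure only the spread between these libraries, which may be technical. HCT-8 in unconditioned medium (2 libraries) is given beside the results as background.

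Conditioned medium carries growth factors, cytokines, vesicles and metabolites that the donor cells released, and lacks the nutrients they consumed. Cells answer such a change partly through the translation machinery, because mRNAs of ribosomal proteins start with a C followed by a run of pyrimidines, the 5′ TOP motif, through which growth signalling controls their use. Other parts of a typical answer lie in the respiratory chain, which is built from nuclear and mitochondrial transcripts, and in the cell cycle genes that colon cancer cells need to divide.

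Counts on genes came to 9350753 and 26709802 in HCT-8 CM, and to 30050758 and 29634718 in HCT-8/FU CM. In HCT-8 CM replicate 1, 29.6% of the records were not aligned, against 3.58% to 4.43% in the other CM libraries. Unconditioned HCT-8 had 8055150 and 34881349 counts on genes in replicates 1 and 2, with 25.1% and 4.09% of the records not aligned. Across 19857 genes, the deviation of a gene from its own mean rose with GC content in HCT-8 CM (Spearman correlation 0.375 and 0.534) and hardly followed it in HCT-8/FU CM (-0.07 and -0.06). In unconditioned HCT-8 the correlation was 0.05 in replicate 1 and 0.215 in replicate 2. Genes are not independent replicates, and whether this trend came from the cells or from library preparation was not tested. All 11 colon epithelial markers were detected, with a summed level of 10100 to 11800 CPM (counts of a gene scaled to a common library size) in the CM libraries and 0 of them called. Fibroblast markers summed to 22.8 to 28.3 CPM with 2 of 10 at 0, endothelial markers to 13.1 to 14.4 CPM with 1 of 8 at 0, and immune markers to 2.89 to 3.48 CPM with 5 of 10 at 0. In bulk RNA, fewer cells of a type and less RNA per cell cannot be told apart.

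Without a correction for GC content and length, far more genes were called higher than lower in HCT-8/FU CM, and these rises were frequent in long genes and in genes of low GC content. A gene was called when its Benjamini-Hochberg adjusted p in edgeR's quasi-likelihood test was at most 0.05 and the log2 fold change was at least 0.58 in size. Of 20305 genes tested, 1619 (7.97%) were called higher and 259 (1.28%) lower. The same test was then run with a correction that removed, in each library, the trend of the genes on GC content and on log length. It left 526 genes (2.65%) higher and 427 (2.15%) lower of the 19857 genes with an annotated sequence. The share of higher genes among the calls therefore went from 86.2% to 55.2%. This balance depended on the libraries of HCT-8 CM. Without replicate 2 of that group the share was 68.4% and, with the correction, 28.3%, so that falls outnumbered rises, and without replicate 1 it was 95.1% and 69.5%. The 259 lower genes became 91 without replicate 1 and 648 without replicate 2. Calls shared by both fits were 518 higher (2.61%) and 119 lower (0.599%). A real change that goes with GC content or length is removed as well, so neither fit is taken as the better one.

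**Figure D1:**
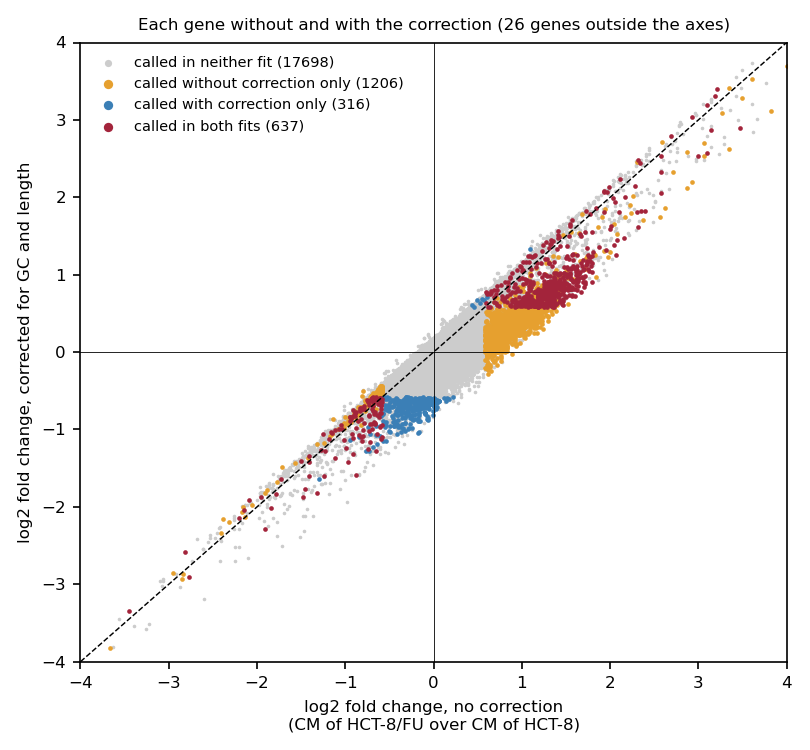
Each point is a gene, with its log2 fold change (HCT-8/FU CM over HCT-8 CM) without correction on the x axis and after the correction for GC content and length on the y axis. Of the 19857 genes, 1206 were called only without the correction, 316 only with it and 637 in both, and 26 lie outside the axes, which end at 4.

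In the lowest GC decile, which spans 26.0% to 39.0% GC, 802 of 1986 genes were called higher and 8 lower without the correction, with a median log2 fold change of 0.63. After the correction, 201 were higher and 140 lower, and the median was 0.04. In the decile of the longest transcripts, 568 of 1986 genes were higher and 1 was lower without the correction, and 228 were higher and 42 lower with it. The genes called higher in both fits kept this character, with a median GC content of 39.9% and a median canonical transcript length of 5943 bases, against 49.0% and 2406 bases over all genes tested. Those called lower in both fits had a median length of 676 bases. With the length of the canonical transcript in place of the length of all exons, an alternative chosen after seeing the data, 463 genes (2.33%) were higher and 395 (1.99%) lower.

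**Figure D2:**
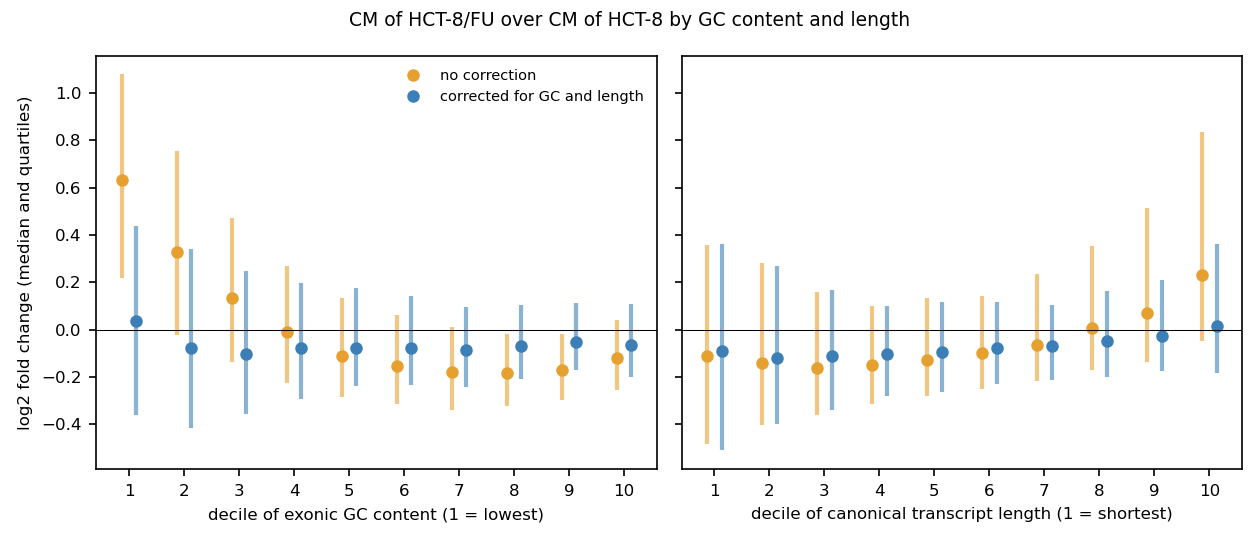
Points are median log2 fold changes (HCT-8/FU CM over HCT-8 CM) and lines their quartiles in deciles of GC content (left) and of canonical transcript length (right), without and with the correction. In the lowest GC decile the median went from 0.63 to 0.04, and in the decile of the longest transcripts from 0.23 to 0.01.

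Transcripts of the cytosolic ribosomal proteins were lower in HCT-8/FU CM. Of 87 genes, 85 were tested. Without the correction 27 fell (31.8%, against 1.28% of all genes) and with it 26 (30.6%, against 2.15%). In both fits 20 fell, while 0 rose in either. The median log2 fold change was -0.46 without and -0.45 with the correction, against -0.06 and -0.07 over all genes. For 80 of the 85, both libraries in HCT-8/FU CM lay below both in HCT-8 CM, a pattern shown by 34.5% of all genes, with 26.9% the other way round. The letters around the transcription start of members that fell in both fits, and of 2 such members without a run of pyrimidines within 20 bases of it, are shown here because the TOP motif is the feature that the family is known for. Each window holds 15 bases before the RefSeq start on GRCh38.p14 and 15 bases from it, in the direction of the gene, and capitals mark a C followed by at least 6 pyrimidines.
RPL37A (chr2:216498829-216498858, plus strand): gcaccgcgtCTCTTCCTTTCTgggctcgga
RPL38 (chr17:74203663-74203692, plus strand): aacggaagtctcgttCTTTTTCgtcctttt
RPS27 (chr1:153990747-153990776, plus strand): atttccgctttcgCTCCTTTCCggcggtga
RPS6 (chr9:19380222-19380251, minus strand): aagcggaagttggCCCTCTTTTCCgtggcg
RPL9 (chr4:39458908-39458937, minus strand): gtacgtaatgacgacagacgttCTTTCTTT
RPS29 (chr14:49598696-49598725, minus strand): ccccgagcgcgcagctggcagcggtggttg
RPL32 (chr3:12841551-12841580, minus strand): gggttacgacccatcagcccttgcgcgcca

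Such a run within 20 bases of the start was found in 56 of the 68 tested cytosolic ribosomal proteins with a RefSeq start (82.4%), against 2150 of 11061 tested protein-coding genes (19.4%). It was found in 15 of 17 members that fell in both fits (88.2%) and in 41 of 51 that did not (80.4%). The run is thus common to the family whether or not a member was called. RPS29 and RPL32 are the 2 members that fell without such a run within 20 bases, which says only that these letters are not there. The first start listed for a gene was used. The nuclear respiratory chain subunits, which also fell in part, held a run in 13 of 66 (19.7%), and the mitochondrial ribosomal proteins in 11 of 69 (15.9%).

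RPL37A, a protein of the large subunit, stood at 485.8 and 403.7 CPM in HCT-8 CM and at 271.0 and 267.9 CPM in HCT-8/FU CM. HCT-8 in unconditioned medium had 407.6 and 357.7 CPM, above both libraries in HCT-8/FU CM. The log2 fold change was -0.72 ± 0.09 (SE) without and -0.93 ± 0.11 with the correction (edgeR's quasi-likelihood test, Benjamini-Hochberg adjusted p = 4.32e-05 and 0.000379). RPS29, of the small subunit, had 129.9 and 103.2 CPM in HCT-8 CM and 62.45 and 59.93 CPM in HCT-8/FU CM, a log2 fold change of -0.92 ± 0.11 that became -1.06 ± 0.13. RPL9 went from 437.2 and 328.8 to 230.3 and 240.8 CPM, and RPL37 from 780.0 and 505.0 to 355.2 and 358.1 CPM. RPS6, a small subunit protein phosphorylated in response to growth signals and named here for its window, went from 1616 and 1153 to 873.1 and 879.6 CPM. In all 5 genes the groups did not overlap, and replicate 1 of HCT-8 CM was the higher library of its group.

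That library carried a large part of the calls. Without HCT-8 CM replicate 1, 4 of the cytosolic ribosomal proteins were called lower in the uncorrected fit and 8 in the corrected one, and without replicate 2 these counts were 42 and 43. The median stayed negative, at -0.35 and -0.28 without replicate 1, and RPL37A and RPS29 were called in both fits under each of these omissions. Without either HCT-8/FU CM library, 26 or 27 members were lower in the uncorrected fit, and 12 or 14 in the corrected one. What the low share of aligned reads in that library contributed was not tested.

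Other lists of the translation machinery held fewer falls. Of 78 mitochondrial ribosomal proteins, 3 fell without (3.85%) and 6 with the correction (7.69%), against 1.28% and 2.15% of all genes. MRPL33 fell in both, with 36.72 and 22.94 CPM in HCT-8 CM against 19.82 and 18.26 CPM. Its call was lost without HCT-8 CM replicate 1 in both fits. Among 45 translation initiation and elongation factors, 1 was higher and 1 lower without the correction and 1 lower with it, each 2.22% of the list. The elongation factor EEF1A1, at 11510 and 11150 CPM in HCT-8 CM and 8903 and 8691 CPM in HCT-8/FU CM, had a log2 fold change of -0.36 without and -0.50 with the correction, under the fold threshold. Of 55 ribosome biogenesis factors, 4 were higher (7.27%, against 7.97% of all genes) and 0 lower in the uncorrected fit. With the correction 1 was higher and 1 lower (1.82% each, against 2.65% and 2.15%). UTP20, needed for the small subunit, rose in both fits (1.10 and 0.72). Of 21 snoRNA host genes, whose transcripts also carry TOP motifs, 0 were called without the correction and 3 were lower with it (14.3%). The median was -0.29 without and -0.40 with the correction. GAS5 had 255.3 and 253.1 CPM in HCT-8 CM and 204.4 and 209.8 CPM in HCT-8/FU CM.

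The mitochondrially encoded mRNAs, which specify the core of the respiratory chain, were lower as a group. All 13 were tested, 7 fell in each fit (53.8%) and 6 in both. Over all genes, 1.28% fell without and 2.15% with the correction, and 0.599% in both. In all 13, both libraries in HCT-8/FU CM lay below both in HCT-8 CM, as in 34.5% of all genes. The median was -0.62 without and -0.64 with the correction. MT-ND3, a subunit of complex I at positions 10059 to 10404 of the mitochondrial genome, stood at 1064 and 548.8 CPM in HCT-8 CM and at 337.3 and 340.8 CPM in HCT-8/FU CM. Its log2 fold change was -1.24 ± 0.22 without and -1.59 ± 0.24 with the correction, and it was called in each fit that left out 1 CM library. MT-ND6, the complex I subunit encoded on the other strand, had 1726 and 1425 CPM against 894.7 and 915.8 CPM, with changes of -0.80 and -1.0. MT-CO1, the catalytic subunit of cytochrome c oxidase, did not pass, with 23530 and 19500 CPM against 16820 and 16980 CPM. Without HCT-8 CM replicate 1, 2 members were called in the uncorrected and 3 in the corrected fit, and without replicate 2, 10 and 12. Without either HCT-8/FU CM library, 7 were lower in the uncorrected and 3 in the corrected fit.

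Nuclear respiratory chain subunits fell in part. Of 82 tested, 18 fell without the correction (22.0%, against 1.28% of all genes), 19 with it (23.2%, against 2.15%) and 10 in both. The medians were -0.35 and -0.38. ATP5F1E and ATP5MG, small subunits of ATP synthase, went from 101.1 and 64.64 to 49.43 and 47.97 CPM and from 103.1 and 61.14 to 41.79 and 43.30 CPM. Their log2 fold changes were -0.74 and -0.92, and -1.25 and -1.31 with the correction. COX7A2L, which helps to assemble respiratory supercomplexes, went from 191.2 and 146.3 to 103.0 and 99.66 CPM, with changes of -0.73 and -0.81, and NDUFB9 of complex I from 141.0 and 87.92 to 69.76 and 71.80 CPM. The groups did not overlap in these genes, and each lost a call without HCT-8 CM replicate 1 in at least 1 of the fits. Without that library the falls numbered 2 in the uncorrected and 9 in the corrected fit, and without replicate 2, 29 and 32. Without HCT-8/FU CM replicate 1 they numbered 14 and 10, and without replicate 2, 12 and 9.

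Sm and LSm proteins, hnRNP proteins and proteasome subunits held more falls with the correction than without it. Of 26 Sm and LSm proteins, the ring proteins of the spliceosomal snRNPs, 1 was higher and 3 were lower without the correction and 6 lower with it (23.1%, against 2.15% of all genes), and SNRPG and SNRPD2 fell in both. SNRPD2 had 164.4 and 104.2 CPM in HCT-8 CM and 72.68 and 80.27 CPM in HCT-8/FU CM, and neither was called in the uncorrected fit without HCT-8 CM replicate 1. Of 37 proteasome subunits, 0 were called without and 2 were lower with the correction. For the hnRNP proteins, which package nascent RNA, 0 of 25 were called without the correction, and 5, among them HNRNPK (-0.31 without, -0.61 with) and HNRNPU (0.15 without, -0.59 with), were called lower only after it (20%). Both were looked at after their values were seen. HNRNPA1, the most abundant member, stood at 1359 and 1124 CPM against 1011 and 1012 CPM and was not called.

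**Figure D3:**
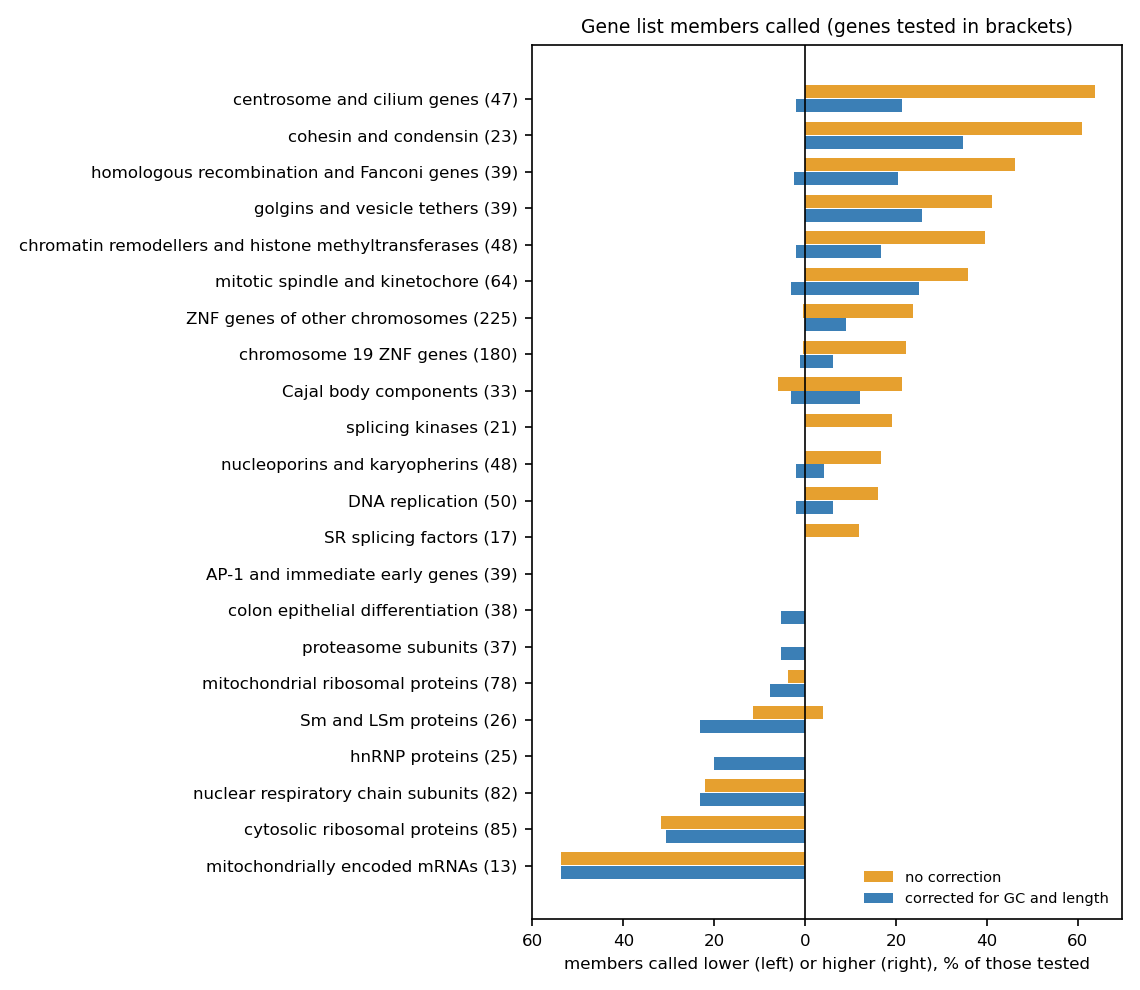
Bars give the percentage of tested members of each gene list called higher (right) or lower (left) in HCT-8/FU CM, without and with the correction for GC content and length, with the number tested in brackets. Mitochondrially encoded mRNAs (53.8% lower in each fit) and cytosolic ribosomal proteins (31.8% and 30.6% lower) lie on the left, and the higher calls of the centrosome and cilium genes went from 63.8% to 21.3% with the correction.

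Part of the genes of the mitotic spindle and kinetochore rose in HCT-8/FU CM. Of 64 tested, 23 rose without the correction and 16 in both fits, while 0 fell without it and 2 with it. The median over the list was 0.14 without and -0.01 with the correction, so its typical member lay near all genes. CENPF, a large kinetochore protein (chromosome 1, 214603185 to 214664574), had 64.34 and 42.11 CPM in HCT-8 CM and 182.3 and 180.4 CPM in HCT-8/FU CM. The values in unconditioned HCT-8 were 57.93 and 57.09 CPM, close to those in HCT-8 CM. The log2 fold change was 1.81 ± 0.15 without and 1.29 ± 0.14 with the correction (edgeR's quasi-likelihood test, adjusted p = 9.23e-07 and 0.000343). MKI67, the proliferation antigen Ki-67 that coats mitotic chromosomes, had 119.4 and 78.76 CPM against 237.3 and 237.1 CPM. With a GC content of 48.2%, near the median of all genes, its change was 1.28 without and 1.20 with the correction. ASPM, a spindle pole protein, went from 24.28 and 20.98 to 72.68 and 73.23 CPM, and KIF20B, a kinesin of cytokinesis, from 13.58 and 10.96 to 35.96 and 36.91 CPM. Their changes were reduced by the correction, from 1.71 to 0.98 and from 1.61 to 0.87. CENPF, MKI67, ASPM and KIF20B were called in both fits without any 1 of the CM libraries. In the corrected fit, 18 members rose without HCT-8 CM replicate 1, 10 without replicate 2 and 12 without either HCT-8/FU CM library.

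The rings that hold and fold chromosomes, and their regulators, rose in part. Of the 23 genes of cohesin and condensin, 14 rose without the correction (60.9%, against 7.97% of all genes) and 8 with it (34.8%, against 2.65%). All 8 were called in both fits, and 0 genes fell. The median GC content of the list was 39.0%, against 49.0% over all genes tested. The median log2 fold change was 1.01 without and 0.49 with the correction. NIPBL, which loads cohesin, had 26.70 and 24.33 CPM in HCT-8 CM and 76.47 and 72.78 CPM in HCT-8/FU CM, with 45.42 and 47.22 CPM in unconditioned HCT-8. Its log2 fold change was 1.56 ± 0.10 without and 0.94 ± 0.10 with the correction. SMC2, an arm of condensin, went from 19.22 and 13.86 to 46.64 and 46.47 CPM (1.55 and 1.01), STAG2, a cohesin subunit, from 50.87 and 40.61 to 111.8 and 114.1 CPM (1.33 and 0.69), and PDS5A, a cohesin regulator, from 113.8 and 91.76 to 224.9 and 228.6 CPM (1.15 and 0.60). The groups did not overlap in these genes, and the corrected calls of STAG2 and PDS5A were lost without HCT-8 CM replicate 2. After the correction 10 members rose without HCT-8 CM replicate 1, 3 without replicate 2, and 6 without either HCT-8/FU CM library.

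Genes of homologous recombination rose in part. A few genes of DNA replication rose too, although the median of that list lay below that of all genes. Of 39 homologous recombination and Fanconi genes, 18 rose without the correction (46.2%, against 7.97% of all genes) and 8 in both fits (20.5%, against 2.61%). With the correction 1 fell (2.56%, against 2.15%), and the median was 0.31 without and 0.06 with it. RIF1, which protects broken ends and sets replication timing, had 36.14 and 29.49 CPM in HCT-8 CM and 103.5 and 96.16 CPM in HCT-8/FU CM, with changes of 1.63 and 0.92. RBBP8, which starts end resection, went from 23.71 and 18.23 to 43.01 and 43.52 CPM (1.08 and 0.82), and RAD50, of the complex that senses breaks, from 56.05 and 37.48 to 112.1 and 107.8 CPM (1.28 and 0.82). BRCA2, which loads the recombinase, went from 10.13 and 8.287 to 25.60 and 27.73 CPM (1.57 and 0.84). Without HCT-8 CM replicate 2, or either HCT-8/FU CM library, 3, 6 and 4 members of the homologous recombination and Fanconi genes rose in the corrected fit, and RAD50 lost its call without the first of these. Of 50 DNA replication genes, 8 rose without the correction (16.0%, against 7.97% of all genes). With it 3 rose (6.0%, against 2.65%) and 1 fell (2.0%, against 2.15%). The median of the list was -0.16 in each fit, against -0.06 and -0.07 over all genes. The rises called in both fits were TOPBP1, RFC1 and DBF4, which all lost the corrected call without HCT-8 CM replicate 2. Of 39 genes of thymidylate, nucleotide and folate metabolism, which includes the target of 5-FU, 2 rose without and 1 fell with the correction. These are 5.13% and 2.56%, against 7.97% and 2.15% of all genes. TYMS, that target, had 79.88 and 89.09 CPM in HCT-8 CM and 78.10 and 76.21 CPM in HCT-8/FU CM, with 45.82 and 43.67 CPM in unconditioned HCT-8. Its log2 fold change was -0.14 ± 0.09 without and -0.01 ± 0.11 with the correction and did not pass (adjusted p = 0.321 and 0.982), and it is named here outside the rule for its role.

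Many rises among genes of the centrosome and cilium were lost with the correction. Of 47 centrosome and cilium genes, 30 rose without the correction (63.8%, against 7.97% of all genes) and 10 with it (21.3%, against 2.65%). The median went from 0.79 to 0.24. The list had a median GC content of 39.9% and a median canonical transcript of 5082 bases, against 49.0% and 2406 bases over all genes tested. CEP350, which anchors microtubules at the centriole, had 21.75 and 19.74 CPM in HCT-8 CM and 72.81 and 66.26 CPM in HCT-8/FU CM, and AKAP9, a scaffold of the centrosome and Golgi, had 24.40 and 26.37 CPM against 85.19 and 80.79 CPM. Their log2 fold changes were 1.76 and 1.70 without and 1.04 and 0.90 with the correction. In unconditioned HCT-8, CEP350 stood at 45.68 and 41.42 CPM and AKAP9 at 69.12 and 68.06 CPM, between the CM groups for both. In the corrected fit the number of higher members was 18 without HCT-8 CM replicate 1, 6 without replicate 2, and 6 and 5 without HCT-8/FU CM replicate 1 and 2. With canonical transcript length it was 14.

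Part of the list of golgins and vesicle tethers, which also holds lipid transfer proteins, rose. Golgins are long coiled-coil proteins that catch transport vesicles. Of 39 tested, 16 rose without the correction (41.0%, against 7.97% of all genes) and 10 with it (25.6%, against 2.65%), and 0 fell. Of 18 tested genes whose symbols open with GOLGA, 1 rose in both fits. The rises included the lipid transfer proteins VPS13B, VPS13C and VPS13A and the golgin GCC2. VPS13C had 32.80 and 24.56 CPM in HCT-8 CM, 92.34 and 90.09 CPM in HCT-8/FU CM and 47.66 and 48.01 CPM in unconditioned HCT-8, with changes of 1.71 and 0.88. GCC2 went from 30.15 and 22.34 to 74.16 and 73.88 CPM (1.54 and 0.81). The median over the golgins and vesicle tethers was 0.24 without and 0.06 with the correction, against -0.06 and -0.07 over all genes. Without HCT-8 CM replicate 2, 6 rose in the corrected fit.

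Chromatin remodellers and histone methyltransferases rose in 19 of 48 without the correction (39.6%, against 7.97% of all genes) and in 8 in both fits (16.7%, against 2.61%). In the corrected fit 1 was lower (2.08%, against 2.15%). ASH1L, a histone H3 methyltransferase, had 49.38 and 41.13 CPM in HCT-8 CM and 94.75 and 94.64 CPM in HCT-8/FU CM, and the correction moved it little (1.08 to 0.86). BAZ2B, a bromodomain protein, went from 8.172 and 8.249 to 27.68 and 25.56 CPM (1.69 and 0.96), and PBRM1, a SWI/SNF subunit, from 43.28 and 36.95 to 82.05 and 79.26 CPM (1.02 and 0.69). PBRM1 lost its corrected call without HCT-8 CM replicate 2. In the corrected fit of these chromatin remodellers and histone methyltransferases, 14 rose without HCT-8 CM replicate 1 and 5 without replicate 2. Of the ZNF genes, zinc finger proteins that mostly repress transcription, 40 of 180 on chromosome 19 rose without the correction (22.2%). On other chromosomes 53 of 225 did (23.6%), against 7.97% of all genes. In both fits 11 (6.11%) and 20 (8.89%) rose, against 2.61%. ZNF292 went from 16.92 and 13.86 to 46.12 and 46.18 CPM (1.62 and 0.94) and ZNF585A from 4.374 and 4.332 to 12.03 and 12.19 CPM (1.48 and 1.10). ZNF101, chosen after its values were seen as the chromosome 19 member that fell in both fits, had 20.26 and 20.68 CPM against 14.63 and 12.65 CPM. With canonical transcript length the ZNF calls were 6 higher and 5 lower on chromosome 19, and 14 higher and 2 lower elsewhere. Reads of these similar genes may be split between copies.

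In the RNA processing lists, rises were called mainly without the correction. The kinase UHMK1, which phosphorylates splicing factors and lies on chromosome 1 from 162497251 to 162529631, stood at 111.4 and 122.3 CPM in HCT-8 CM and at 204.6 and 203.1 CPM in HCT-8/FU CM, with 119.1 and 135.4 CPM in unconditioned HCT-8. The CM groups did not overlap. The log2 fold change was 0.80 ± 0.08 without the correction (edgeR's quasi-likelihood test, adjusted p = 5.28e-06), and 0.17 ± 0.10 with it (adjusted p = 0.34). Its GC content is 37.4% and its canonical transcript 8524 bases. The call held in 4 of 4 fits that left out a CM library without the correction, and in 0 of 4 with it. The study chose UHMK1 as its candidate kinase. It reported more UHMK1 mRNA by RT-qPCR, and more of the protein by Western blot, in HCT-8 cells in HCT-8/FU CM. Those assays are not part of the counts used here. Of the 21 splicing kinases, 4 were higher without (19%, against 7.97% of all genes) and 0 with the correction. Of 17 SR splicing factors these counts were 2 (11.8%) and 0. Of 33 Cajal body components, 7 were higher (21.2%) and 2 lower without the correction. With it 4 were higher (12.1%, against 2.65% of all genes) and 1 lower, all of them called in both fits, and NOP10, a protein of pseudouridylation complexes named because it was the only fall in both, had 70.90 and 42.04 CPM against 35.41 and 35.32 CPM. The rises were NPAT, the coactivator of histone genes (9.438 and 7.873 against 23.54 and 25.69 CPM, changes 1.54 and 0.98), ICE1 of the little elongation complex, CASP8AP2 and USPL1. USPL1 and NOP10 were not called with canonical transcript length. COIL, which encodes coilin, the scaffold of Cajal bodies, had 20.26 and 22.30 CPM against 21.23 and 17.61 CPM, and the groups overlapped. In nonsense-mediated decay, 2 of 20 (10.0%) rose in both fits, and 1 more was lower with the correction. They were SMG1, the kinase of the pathway, with 132.5 and 111.7 CPM against 292.8 and 288.3 CPM (1.26 and 0.76), and UPF2, the adaptor. Of 48 nucleoporins and karyopherins, 8 rose without the correction (16.7%), RANBP2 and TPR in both fits (4.17%), and 1 was lower with it. UPF2, RANBP2 and TPR lost the corrected call without HCT-8 CM replicate 2.

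Pathways through which a medium could signal had at most 2 rises each in both fits. Without the correction, 4 of 20 genes of the EGFR family (20%), 5 of 35 TGF-beta and BMP genes (14.3%), 4 of 33 YAP and TEAD genes (12.1%), 3 of 29 NF-kappaB genes (10.3%) and 4 of 40 interferon-stimulated genes (10.0%) were higher, against 7.97% of all genes. With it these counts were 1, 2, 2, 1 and 2, from 3.45% to 6.06% of the lists, against 2.65%. REL, a subunit of NF-kappaB, had 1.611 and 1.582 CPM in HCT-8 CM, 8.051 and 7.816 CPM in HCT-8/FU CM and 4.345 and 4.139 CPM in unconditioned HCT-8. Its log2 fold change was 2.31 ± 0.23 without and 1.62 ± 0.22 with the correction (adjusted p = 4.94e-06 and 0.000731), yet it was the 1 member of 29 NF-kappaB feedback and cytokine genes that rose in both fits. HIF1A, the oxygen-sensing factor, rose from 27.16 and 19.89 to 54.78 and 52.28 CPM (1.23 and 0.76), and it was the 1 riser among 41 glycolysis and hypoxia genes. Of 40 interferon-stimulated genes, the RNA helicases DDX60 and RIGI rose and IFITM2, a membrane protein that blocks viral entry, fell in both fits. IFITM2 had 49.15 and 33.71 CPM against 22.39 and 25.59 CPM, with 16.06 and 17.62 CPM in unconditioned HCT-8, and its call was lost in both fits without HCT-8 CM replicate 1. BMPR2, a BMP receptor, and SKIL, a repressor of SMAD signalling, rose in both fits among 35 TGF-beta and BMP genes. So did NRG4, an ERBB4 ligand, among 20 of the EGFR family, and MOB1B and TEAD1 among 33 YAP and TEAD genes. With canonical transcript length, 0 of the TGF-beta and BMP genes were called and 1 of the YAP and TEAD genes was higher. REL was called in both fits without any 1 of the CM libraries, while each other gene named here as called lost a corrected call without at least 1 of them. Of 39 AP-1 and immediate early genes and of 7 CXC chemokines, 0 were called in either fit. CXCL5 had 7.711 and 4.784 CPM in HCT-8 CM and 5.998 and 6.389 CPM in HCT-8/FU CM, against 1.975 and 1.360 CPM in unconditioned HCT-8.

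Stress, epithelial and metabolic lists had few members called in both fits. Of 31 p53 targets, 39 genes of the integrated stress response and 33 NRF2 antioxidant genes, 3, 3 and 2 were higher (9.68%, 7.69% and 6.06%, against 7.97% of all genes) and 0 lower without the correction. With it, 0 were higher and 1 was lower in each (3.23%, 2.56% and 3.03%, against 2.15%). GDF15, a p53 and stress target, had 614.6 and 620.7 CPM in HCT-8 CM and 564.1 and 573.1 CPM in HCT-8/FU CM, with 1102 and 1207 CPM in unconditioned HCT-8. Of 34 endoplasmic reticulum chaperone genes, 2 rose (5.88%) and 1 fell (2.94%) without the correction, and 4 fell with it (11.8%, against 2.15%). MANF, a secreted stress protein, fell in both fits, from 490.2 and 313.1 to 230.5 and 218.1 CPM (-0.83 and -0.72), though in neither fit without HCT-8 CM replicate 1. HSPA4L, of 38 heat shock chaperones, rose in both fits, but 0 of this list were called with canonical transcript length. Of 38 colon epithelial differentiation genes, 0 were called without and 2 were lower with the correction (5.26%, against 2.15%). KRT8 stood at 5273 and 5869 against 4882 and 4910 CPM. ITGAV, the integrin alpha-V chain, rose from 62.61 and 53.98 to 148.4 and 147.6 CPM (1.36 and 0.59), 1 of 30 integrins and laminins called in both fits, and lost its corrected call without HCT-8 CM replicate 2. ZEB1, a transcription factor of epithelial-mesenchymal transition, rose among 23 such genes, of which 0 were called with canonical transcript length. Without the correction, 1 of 27 cholesterol synthesis genes (3.7%) and 3 of 35 cell junction genes (8.57%) were higher. So were 1 of 7 metallothionein and zinc export genes (14.3%), 2 of 35 fatty acid genes (5.71%) and 3 of 28 ABC transporters (10.7%). The share over all genes was 7.97%. Of 48 lysosome genes, 1 was lower (2.08%, against 1.28%). With the correction, 0 members of these lists were higher. Lower with it were 2 fatty acid genes (5.71%), 3 lysosome genes (6.25%) and 1 ABC transporter (3.57%), against 2.15%. Of 34 autophagy genes, ATG2B and RB1CC1 rose and ATG10 fell in both fits. ATG2B was not called with canonical transcript length. ATG10 overlaps the ribosomal protein gene RPS23, which lies on the other strand. ATG10 went from 429.4 and 330.7 to 234.6 and 234.4 CPM, and RPS23 from 712.8 and 537.5 to 381.5 and 370.5 CPM. Whether reads of RPS23 were counted for ATG10 was not tested, so the fall of ATG10 is uncertain.

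The largest rises among well-expressed protein-coding genes reached 2.06 in log2 fold change without and with the correction. They were taken from the 372 protein-coding genes called higher in both fits that had a mean of at least 5 CPM and did not overlap between the groups. NBEAL1, a large BEACH-domain protein (chromosome 2, 203014608 to 203226378), led with 6.560 and 9.643 CPM in HCT-8 CM and 36.66 and 35.06 CPM in HCT-8/FU CM. Unconditioned HCT-8 had 26.20 and 22.77 CPM. The change was 2.06 ± 0.15 without and 1.25 ± 0.16 with the correction (edgeR's quasi-likelihood test, adjusted p = 5.99e-07 and 0.000448). APC, the tumour suppressor that limits Wnt signalling in the colon (chromosome 5, 112707518 to 112846239), went from 12.55 and 9.568 to 38.49 and 39.60 CPM, with 15.93 and 17.74 CPM in unconditioned HCT-8 and changes of 1.87 ± 0.14 and 1.36 ± 0.14. APC was the 1 member of 36 Wnt targets and intestinal stem genes called in both fits. RICTOR, which defines the kinase complex mTORC2, went from 9.783 and 8.588 to 29.54 and 32.89 CPM (1.79 and 1.03). The chromatin remodeller CHD9 went from 13.24 and 9.869 to 37.30 and 39.73 CPM and DMXL2, a regulator of vesicle acidification, from 31.42 and 20.94 to 86.02 and 88.25 CPM. ANKRD26 went from 2.532 and 3.466 to 12.16 and 12.36 CPM, and FSIP2, a sperm tail protein, from 1.496 and 3.277 to 9.109 and 9.535 CPM.

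TXNDC5, a protein disulphide isomerase of the endoplasmic reticulum (chromosome 6, 7881517 to 7910788), differed from the others. Its GC content is 50.9% and its canonical transcript 2938 bases, and the correction did not reduce its change (1.96 ± 0.34 without, 2.06 ± 0.36 with, adjusted p = 0.000805 and 0.0028). It stood at 9.323 and 2.750 CPM in HCT-8 CM, at 19.82 and 20.89 CPM in HCT-8/FU CM and at 3.028 and 2.690 CPM in unconditioned HCT-8. The CM groups did not overlap, although the replicates of HCT-8 CM differed, and the change ran from 1.13 to 2.89 when 1 CM library was left out of the uncorrected fit. The leading rises named were called in each of the 4 uncorrected fits that left out a CM library, and all but FSIP2 in each of the 4 corrected ones. FSIP2 kept its corrected call in 1 of 4.

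**Figure D4:**
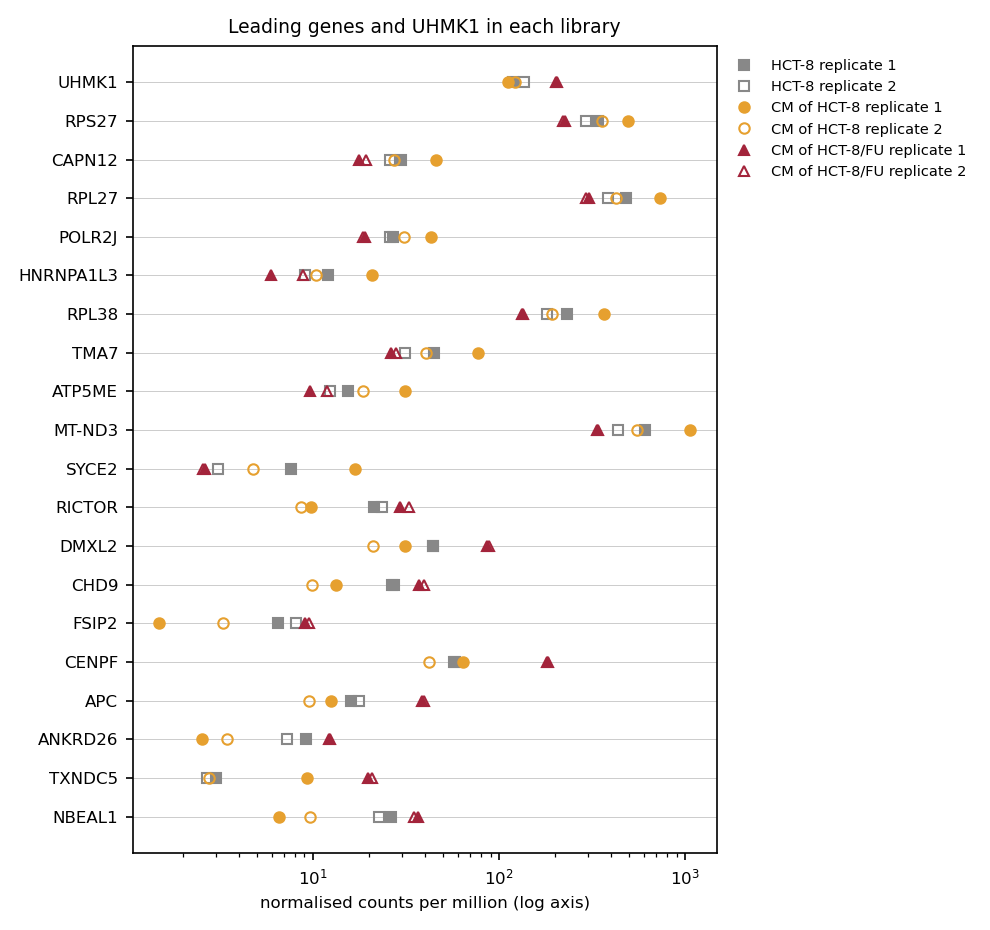
CPM on a log axis for the leading rises named, the 10 leading falls and UHMK1 in each of the 6 libraries (filled symbols are replicate 1, open symbols replicate 2). For NBEAL1 the HCT-8 CM libraries sit at 6.560 and 9.643 CPM, below unconditioned HCT-8, while for TXNDC5 unconditioned HCT-8 lies at 3.028 and 2.690 CPM, near HCT-8 CM replicate 2.

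The leading falls came from 70 genes selected in the same way and had canonical transcripts of 303 to 3129 bases, against 2938 to 20879 bases for the leading rises. Besides MT-ND3 they included the ribosomal proteins RPL38, RPL27 and RPS27. RPL38 had 367.2 and 192.3 CPM in HCT-8 CM and 133.6 and 134.6 CPM in HCT-8/FU CM, with changes of -1.05 and -0.94. RPS27 went from 495.7 and 357.1 to 225.6 and 219.6 CPM (-0.93 and -0.87) and RPL27 from 734.2 and 424.6 to 305.1 and 295.0 CPM (-0.94 and -0.84). POLR2J, a small subunit of RNA polymerase II, went from 43.28 and 30.74 to 19.12 and 18.49 CPM (-0.95 and -0.84). SYCE2, a protein of the meiotic synaptonemal complex, had 16.92 and 4.746 CPM against 2.630 and 2.562 CPM (-1.96 ± 0.49 without, -1.87 ± 0.52 with), so its fall rested on 1 library. The protease CAPN12 and HNRNPA1L3, a retrocopy of HNRNPA1 whose reads may come from its parent, fell by 0.94 and 1.02 on the log2 scale without the correction. ATP5ME, of ATP synthase, and TMA7 overlap genes on the other strand over 61.3% and 53.2% of their exons. A strand setting of the counting was not given in the sources read, so these 2 falls are uncertain. Without HCT-8 CM replicate 1, the uncorrected calls of SYCE2, TMA7, RPL38, HNRNPA1L3, RPL27 and CAPN12 were lost, and those of MT-ND3, ATP5ME, POLR2J and RPS27 were kept. The corrected calls of SYCE2, ATP5ME, TMA7, RPL38, RPL27 and CAPN12 held only without HCT-8 CM replicate 2. Those of POLR2J, RPS27 and HNRNPA1L3 were lost without HCT-8 CM replicate 1. When 1 CM library was left out of the corrected fit, their changes ran from -1.16 to -0.539, from -1.15 to -0.559 and from -1.66 to -0.599.

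Genes were also grouped by the letters that open their symbols. Of 92 families with at least 15 tested members, 40 had a member higher in both fits and 10 a member lower in both. Of all 13766 protein-coding genes, 2.97% were higher and 0.523% lower in both fits. The kinesins (KIF) led with 8 of 34 (23.5%), followed by the CEP centrosomal proteins with 7 of 38 (18.4%), the ZBTB zinc fingers with 7 of 40 (17.5%), the ARHGAP genes with 5 of 29 (17.2%) and the ANKRD ankyrin repeat genes with 6 of 37 (16.2%). The latter include near-identical copies between which reads may be shared. With canonical transcript length, 9 KIF, 10 CEP and 6 ANKRD genes were called higher and 0 lower. In ZBTB and in ARHGAP, 3 were then higher and 1 was lower. KIF15, a spindle kinesin, had 4.719 and 3.918 CPM in HCT-8 CM and 12.45 and 12.75 CPM in HCT-8/FU CM (1.58 and 1.26), and KIF5B, which carries cargo along microtubules, 151.7 and 99.29 CPM against 302.9 and 306.4 CPM (1.3 and 0.84). Among the falls, RPL had 12 of 48 (25%) and RPS 7 of 41 (17.1%). COX followed with 2 of 22 (9.09%), ATG with 1 of 18 (5.56%) and ATP with 3 of 72 (4.17%). The ATG member is ATG10, whose fall is uncertain because it overlaps RPS23 on the other strand.

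Unconditioned HCT-8 was then placed beside both CM groups. These comparisons share libraries with the one above, so their values are only set side by side. HCT-8 CM against HCT-8 called 783 genes higher (3.86%) and 872 lower (4.29%) without and 549 (2.76%) and 540 (2.72%) with the correction. HCT-8/FU CM against HCT-8 called 1454 higher (7.16%) and 666 lower (3.28%) without and 792 (3.99%) and 968 (4.87%) with it. Medians of the lists are given from the uncorrected fit, and counts of calls from both. For the cytosolic ribosomal proteins the median log2 fold change was 0.11 in HCT-8 CM and -0.37 in HCT-8/FU CM, both against HCT-8, and for the mitochondrially encoded mRNAs 0.26 and -0.27. Calls against HCT-8 among the cytosolic ribosomal proteins were 3 lower in HCT-8/FU CM without the correction, and 1 higher in HCT-8 CM and 8 lower in HCT-8/FU CM with it. Of the mitochondrially encoded mRNAs, 1 was lower in HCT-8/FU CM without and 3 with the correction. For the centrosome and cilium genes the medians were -0.22 and 0.37, with 13 members lower in HCT-8 CM and 15 higher and 1 lower in HCT-8/FU CM. These counts were 5, 6 and 1 with the correction. For the golgins and vesicle tethers they were -0.47 and -0.08, with 13 lower in HCT-8 CM and 5 higher and 3 lower in HCT-8/FU CM. With the correction 6 were lower in HCT-8 CM, and in HCT-8/FU CM 1 was higher and 5 were lower, so that falls outnumbered rises there. In cohesin and condensin they were -0.17 and 0.54, with 5 lower in HCT-8 CM and 11 higher in HCT-8/FU CM, which became 1 and 5. For the mitotic spindle and kinetochore they were 0.28 and 0.70, with 17 members higher and 1 lower in HCT-8 CM and 35 higher in HCT-8/FU CM without the correction, and with 18 higher in HCT-8 CM and 30 higher and 1 lower in HCT-8/FU CM after it. DNA replication genes had near-equal medians of 0.45 and 0.43, with 17 higher in each and 1 lower in HCT-8/FU CM. With the correction 21 were higher in HCT-8 CM, and in HCT-8/FU CM 14 were higher and 1 lower.

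**Figure D5:**
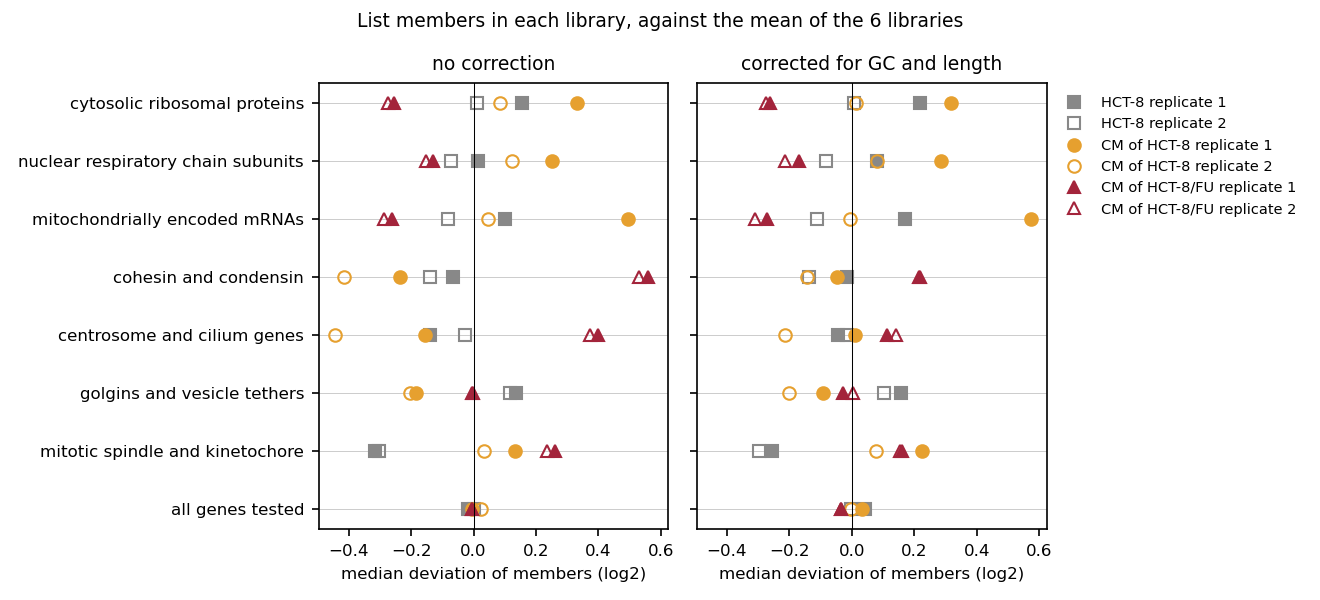
Each symbol is the median over list members of the log2 deviation from the mean of the 6 libraries, without (left) and with (right) the correction for GC content and length. For the cytosolic ribosomal proteins both HCT-8/FU CM libraries lie at -0.25 and -0.28 without the correction and HCT-8 CM replicate 1 at 0.33, above replicate 2 at 0.08.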

How the data were processed

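The authors sequenced pairs of 150-base reads, and the submitters' processing notes name HISAT2, SAMtools 1.18, HTSeq 0.11.2, DESeq2 1.30.0 and the build GRCh38. They deposited raw counts for 64253 genes in each library. Lines without a gene (no feature, not aligned and the like) were left out of library sizes, so that 29.7% to 40.6% of the records of a CM library were used. Deposited DESeq2 tables hold the authors' own log2 fold changes and p-values and were not used here.

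Genes were named from GENCODE 44, where 56105 identifiers were found, and gene GC content and length were taken over all exons. Counts of all 8 libraries were fitted in R 4.3.3 with edgeR 4.0.16 (filterByExpr, TMM, means of the 4 groups, quasi-likelihood test, Benjamini-Hochberg adjustment over all genes tested). Standard errors were derived from the log2 fold change and its F statistic. The corrected fit added offsets from splines with 5 degrees of freedom on GC content and log length. CPM are TMM-scaled. The scripts were tested on simulated data. DESeq2 1.42.0, another filter, other scalings, a replicate block and leaving out libraries were alternatives. No set test was run.

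Members and lists were chosen with earlier results of these data known. Genes named are UHMK1, the 10 leading genes in each direction, up to 4 members per list that were called in both fits or else the 2 most abundant, the 5 leading families in each direction, and genes said to be chosen otherwise. Some genes that these rules select are not reported here. Sequences are from RefSeq, where 27305 promoters were given. CPM rests on 9350753 counts in the shallowest CM library, and 2 replicates per group limit the precision.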

Additional observations from a re-analysis of the deposited data

How the results depend on the processing

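Within each fit, no called change of a gene named by the rules reversed under the alternatives run. Of their values, 64 without and 157 with the correction lost their call. Genes named outside the rules were not counted here, and HNRNPU, 1 of them, changed sign between the fits and was called only with the correction. The 1619 genes called higher without the correction stayed within 1.5 times that number. The 259 lower genes became 165 with DESeq2's size factors, 126 with HCT-8 CM replicate 2 as the TMM reference, 81 with only the 4 CM libraries, 136 with DESeq2 and 1723 with the FDR alone, and 91 to 648 when 1 CM library was left out (91 without HCT-8 CM replicate 1, of which 50 are among the 259, and 648 without replicate 2, 130 without HCT-8/FU CM replicate 1 and 156 without replicate 2). With the correction, the 526 higher genes became 815 with no filter on low counts and 805 with the FDR alone, and 278 to 676 without 1 CM library (322 without HCT-8 CM replicate 2, 279 and 278 without HCT-8/FU CM replicate 1 and 2). The 427 lower genes became 1172 with the FDR alone, and 181 to 814 without 1 CM library (814 without HCT-8 CM replicate 2, 181 and 191 without HCT-8/FU CM replicate 1 and 2). The share of higher genes among the calls was 68.4% without HCT-8 CM replicate 2 and no correction. With the correction it was 28.3% without HCT-8 CM replicate 2 and 69.5% without replicate 1. The cause was not tested.

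Replicate numbers are shared between the groups, but same-numbered CM libraries did not deviate together (r = -0.03, 2 pairs). With a replicate block, 1573 genes were higher and 243 lower without the correction, and 486 and 411 with it. GC content alone as the correction gave 601 and 476, and canonical transcript length, chosen after seeing the data, 463 and 395.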

Other observations

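Genes outside the protein-coding class showed both directions. Of 4095 lncRNAs tested, 160 rose and 44 fell in HCT-8/FU CM without the correction, and 83 and 56 with it. Over all genes, 7.97% rose and 1.28% fell without the correction, and 2.65% and 2.15% with it. Rises were thus less frequent among lncRNAs than over all genes. CYTOR, a lncRNA expressed in colon cancer, fell in both fits, from 10.13 and 9.342 to 6.543 and 6.032 CPM (log2 fold change -0.62 and -0.84), and lost the corrected call without either HCT-8/FU CM library. Of 822 processed pseudogenes, 24 were higher and 46 lower without the correction and 11 and 24 with it, with a median of -0.20. Falls were more frequent among them than over all genes, and their reads may come from the genes they were copied from. Of 22 replication-dependent histones, 1 rose in both fits, H4C15, which had 0 and 0.113 CPM in HCT-8 CM and 1.058 and 0.4216 CPM in HCT-8/FU CM, and lost its call without any 1 of the CM libraries.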
